A study of Mus musculus with 14 samples.

Results

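The genes described here encode the core of the calcium and calmodulin signalling system of hippocampal neurons. They are the CaMKII subunit genes Camk2a, Camk2b, Camk2d and Camk2g, the calmodulin genes Calm2 and Calm3, the calmodulin-binding protein gene Nrgn (neurogranin), and the calcineurin catalytic subunit genes Ppp3ca and Ppp3cb. The members are defined by gene symbol and not by a cut on a measured value, but were chosen with earlier results of these data known. They are 9 of the 17569 genes with an assembled transcript in any library, and all 9 had a value in all 14 libraries and an entry in all 4 tables of the authors' comparisons.

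RNA of the hippocampus was sequenced from 14 C57BL6 mice labelled 30-day old, with 1 library per sample. The groups crossed the genotype, wild type (KMT2D+/+) or KMT2D+/bGeo, with the treatment. The KMT2D+/bGeo mice are heterozygous for a gene trap allele of the histone methyltransferase gene Kmt2d. Treatment was by gavage, with 1 mg/kg/day of TAK-418 in methylcellulose or with methylcellulose alone as the vehicle. TAK-418 inhibits LSD1, which removes methyl groups from histone H3 lysine 4. Mice were 2 weeks old at the first dose and were treated for 2 weeks. Vehicle was given to 3 wild types and 3 mutants, and TAK-418 to 5 wild types and 3 mutants, where the series text gives at most 4 per group. The labels do not say that samples of a group came from separate litters or dosing days, so p-values measure the spread between these samples only.

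Calcium that enters a neuron through NMDA receptors and calcium channels binds calmodulin. Calcium-loaded calmodulin activates the kinase CaMKII, a holoenzyme of alpha, beta, gamma and delta subunits that strengthens synapses, and the phosphatase calcineurin, which opposes it at many of the same synapses. Neurogranin is a small postsynaptic protein that binds calmodulin when calcium is low and releases it when calcium rises. In the forebrain the alpha subunit is the most abundant CaMKII subunit and a major protein of the postsynaptic density.

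Calm2 and Calm3 are separate genes for calmodulin. The coding sequences of Calm2-201 and Calm3-201 in GENCODE M21 (GRCm38) are both 447 bases long and differ at 78 positions, an identity of 82.6%. They translate to the same protein of 149 residues. The first 90 coding bases are shown because they make visible how reads of the 2 genes can be told apart. Capitals mark the 15 positions at which they differ, and the longest stretch shared by the whole coding sequences of Calm2 and Calm3 is 17 bases.
Calm2: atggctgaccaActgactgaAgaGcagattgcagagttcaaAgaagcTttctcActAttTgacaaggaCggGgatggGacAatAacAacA
Calm3: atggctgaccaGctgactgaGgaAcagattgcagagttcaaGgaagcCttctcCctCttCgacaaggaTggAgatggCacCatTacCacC

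The CaMKII subunits differ most in the linker between the regulatory segment and the hub domain, where alternative exons are spliced in or out. Of the exons that passed the filters for the splicing comparison, 9 belonged to the genes described here: 1 in Camk2b, 3 in Camk2d, 4 in Camk2g and 1 in Ppp3ca. They were 30 to 114 bases long, 8 of the 9 were a whole number of codons, and 8 lay inside an annotated coding sequence. The 8 coding exons are shown because the splicing results below turn on them. Each is printed 5′ to 3′ on the strand of the gene from a GENCODE M21 transcript, with the exon in capitals between the 12 bases on either side of it.
Camk2b 45-base exon, chr11:5981070-5981114, minus strand: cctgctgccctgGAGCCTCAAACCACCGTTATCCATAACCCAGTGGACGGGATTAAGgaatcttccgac
Camk2d 60-base exon, chr3:126805857-126805916, plus strand: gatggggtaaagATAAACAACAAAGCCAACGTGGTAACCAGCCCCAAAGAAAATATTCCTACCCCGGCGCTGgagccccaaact
Camk2d 42-base exon, chr3:126808208-126808249, plus strand: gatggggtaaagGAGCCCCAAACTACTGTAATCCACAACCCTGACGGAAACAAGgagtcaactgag
Camk2g 63-base exon, chr14:20757666-20757728, minus strand: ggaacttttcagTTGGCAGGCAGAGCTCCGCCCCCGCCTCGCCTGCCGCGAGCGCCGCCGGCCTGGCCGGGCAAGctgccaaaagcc
Camk2g 33-base exon, chr14:20747819-20747851, minus strand: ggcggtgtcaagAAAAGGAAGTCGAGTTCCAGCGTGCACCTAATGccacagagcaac
Camk2g 69-base exon, chr14:20745792-20745860, minus strand: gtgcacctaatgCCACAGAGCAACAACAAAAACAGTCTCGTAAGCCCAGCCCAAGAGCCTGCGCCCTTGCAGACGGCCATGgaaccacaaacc
Camk2g 114-base exon, chr14:20741378-20741491, minus strand: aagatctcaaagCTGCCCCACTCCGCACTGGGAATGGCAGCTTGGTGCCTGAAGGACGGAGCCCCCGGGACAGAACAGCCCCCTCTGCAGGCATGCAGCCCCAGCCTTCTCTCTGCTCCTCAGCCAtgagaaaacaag
Ppp3ca 30-base exon, chr3:136932011-136932040, plus strand: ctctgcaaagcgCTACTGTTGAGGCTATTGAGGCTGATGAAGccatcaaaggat

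The 45-base exon of Camk2b and the 42-base exon of Camk2d share 24 of their first 30 bases. In the transcripts printed, the linker exons begin at codon 378 of 666 in Camk2b-202, at codon 329 in both Camk2d transcripts, and at codons 331 and 342 of 529 in Camk2g-201. The 33-base exon of Camk2g belongs to a family of CaMKII linker exons known to carry a nuclear localization signal. Aligned as whole proteins in the most abundant annotated form of each gene, Camk2b and Camk2g were 88.2% identical, and Camk2a and Camk2g 84.5%, the highest and lowest of the 6 CaMKII pairs. The proteins of Ppp3ca and Ppp3cb were 84.4% identical over 514 aligned residues.

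Some libraries stood apart before any comparison. The relative depth (in units of 1000000 reads or fragments, which of them is not stated), read from the step between the values of single-exon transcripts, was 34.9 to 59.8 in 13 libraries and 167.6 in wild-type TAK-418 replicate 1. The summed scaled abundance of 6 choroid plexus markers was 6457 in wild-type vehicle replicate 3 and 5028 in mutant vehicle replicate 1, against a median of 42.8 over the 14 libraries. The third highest library, also on vehicle, was at 906. Mutant TAK-418 libraries reached 606, and wild-type TAK-418 libraries lay at 15.9 to 43.2. The excitatory neuron markers Slc17a7, Neurod6 and Neurod2 had a value in every library, and their sum was 841 to 913 in wild-type vehicle, 875 to 925 in mutant vehicle, 831 to 1015 in wild-type TAK-418 and 912 to 946 in mutant TAK-418 libraries. Kmt2d, the trapped gene, had a scaled abundance of 11.1, 11.1 and 13.8 in wild-type vehicle, 9.22, 10.6 and 13.0 in mutant vehicle, 11.9, 12.9, 13.8, 14.8 and 15.4 in wild-type TAK-418, and 9.35, 11.8 and 11.8 in mutant TAK-418 libraries. The ranges of mutants and wild types overlapped under vehicle, and not under TAK-418. On abundance times length they overlapped under TAK-418 too, at 169 to 221 in mutants and 215 to 288 in wild types. Where the trap lies in the gene is not given in the sources used here, so a sum over whole transcripts is a weak check of the genotype labels.

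Per length, Calm2 was the most abundant of the 9 genes and Camk2d the least. Levels are given as scaled abundance, the sum over a gene's assembled transcripts of a value per kilobase and per 1000000 fragments (FPKM-like), after scaling between libraries. Over 14 libraries Calm2 averaged 1765 ± 97.2 (SD), which gave it rank 5 among all genes. Calm3 averaged 1217 ± 35.7, Nrgn 1176 ± 293, Camk2a 1127 ± 57.0 and Ppp3ca 762 ± 59.3. Camk2b averaged 406 ± 80.5, Ppp3cb 184 ± 33.1, Camk2g 55.9 ± 1.84 and Camk2d 10.5 ± 0.998, all as SD with n = 14. The genes thus covered a range of ranks from 5 to 7512.

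**Figure D1:**
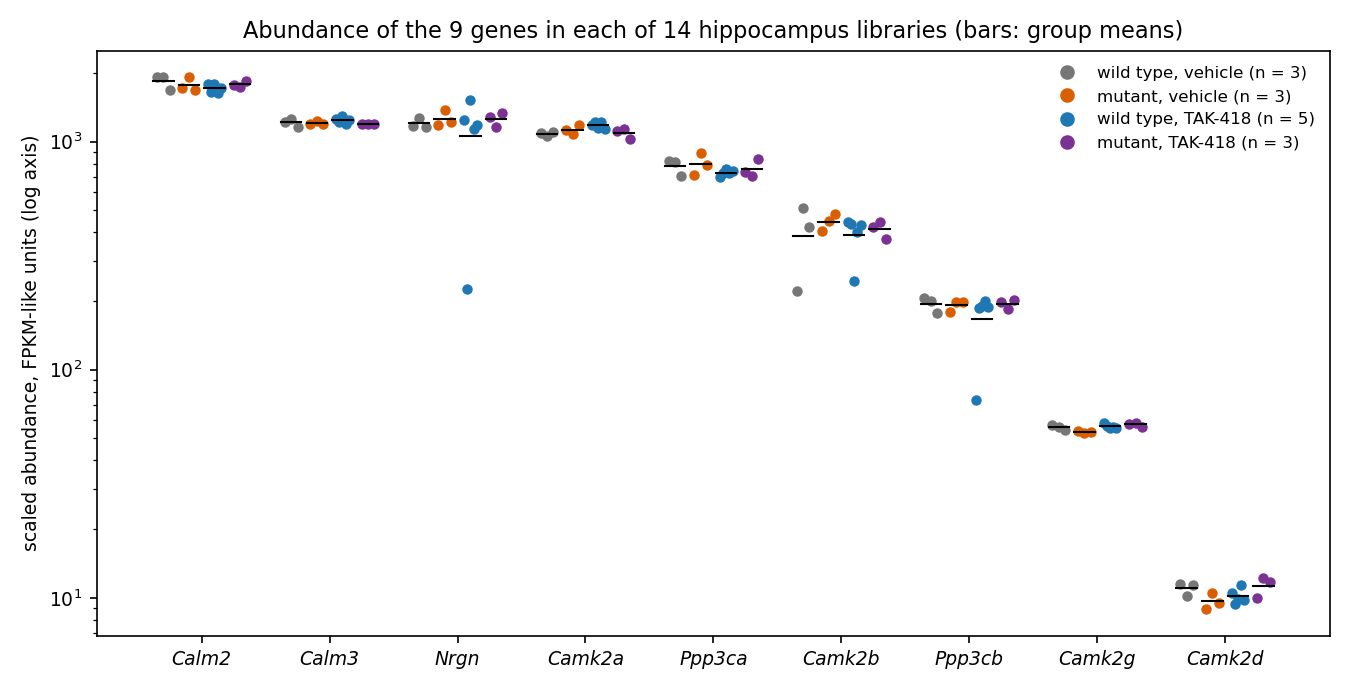
Scaled abundance (FPKM-like units, log axis) of the 9 genes in each of the 14 libraries, coloured by group, with a bar at each group mean. Calm2 lies at the top and Camk2d at the bottom in every group. Single libraries of Nrgn (226), Ppp3cb (73.3) and Camk2b (221 and 245) lie far below the rest.

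The order of the levels was the same in all 14 libraries for 6 of the 8 neighbouring pairs. Calm3 and Nrgn could not be ordered, with Calm3 higher in 8 of 14 libraries, and Nrgn was above Camk2a in 12 of 14 with overlapping ranges. Multiplied by length, which approximates the share of fragments, the order was another: Camk2a had rank 2 among all genes with a mean of 5231, followed by Ppp3ca (2698) and Calm3 (2417), in FPKM-like units times kilobases.

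Camk2a, which encodes the alpha subunit, made up 70.6% ± 3.89 (SD, n = 14) of the summed abundance of the 4 CaMKII genes. Camk2b, the actin-binding beta subunit, made up 25.2% ± 4.11, and Camk2d and Camk2g together 4.17% ± 0.342. Camk2a values were 1052, 1094 and 1097 in wild-type vehicle and 1077, 1125 and 1184 in mutant vehicle libraries. They were 1130, 1141, 1180, 1214 and 1217 in wild-type TAK-418 and 1028, 1115 and 1130 in mutant TAK-418 libraries. All 5 treated wild types lay above all 3 vehicle wild types. They also lay above all 3 treated mutants, but the lowest treated wild type (1129.8) and the highest treated mutant (1129.7) were almost equal, and on abundance times length these groups overlapped. The treated mutants overlapped both vehicle groups.

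Camk2g, the gamma subunit, which is known for carrying calmodulin to the nucleus of excitatory neurons, had the narrowest spread of the CaMKII genes. Its values were 54.5, 56.1 and 57.3 in wild-type vehicle, 52.7, 53.3 and 53.7 in mutant vehicle, 55.3, 55.4, 56.2, 56.6 and 58.4 in wild-type TAK-418, and 56.2, 57.9 and 58.5 in mutant TAK-418 libraries. The vehicle mutants were the lowest group and overlapped none of the others. How many of all genes have groups that separate in this way, as here and for Camk2a, was not counted. Such separation is a description only. Camk2d, the delta subunit, was at 10.2, 11.4 and 11.5 in wild-type vehicle and 8.93, 9.49 and 10.5 in mutant vehicle libraries. It was at 9.42, 9.83, 9.87, 10.5 and 11.4 in wild-type TAK-418 and 9.999, 11.7 and 12.2 in mutant TAK-418 libraries. These groups overlapped on scaled abundance. On abundance times length the vehicle mutants (32.7 to 36.2) lay below the vehicle wild types (36.55 to 40.2) and the treated mutants (37.6 to 42.3). They overlapped the treated wild types on that scale (34.55 to 42.85). A member at this level rests on fewer fragments than the others.

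Calm2 ranged from 1629 to 1911 and Calm3 from 1163 to 1297 over the 14 libraries, and the 4 group means were 1714 to 1837 and 1193 to 1239. The ratio of Calm2 to Calm3 was 1.45 ± 0.07 (SD, n = 14). It was 1.36 to 1.43 in the 5 treated wild types and 1.41 to 1.57 in the other 9 libraries, and these ranges overlapped.

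Ppp3ca, the alpha catalytic subunit, was at 705, 813 and 824 in wild-type vehicle, 716, 786 and 892 in mutant vehicle, 701, 724, 726, 741 and 762 in wild-type TAK-418, and 704, 738 and 836 in mutant TAK-418 libraries. All groups overlapped. Ppp3cb, the beta catalytic subunit, lay between 177 and 207 in 13 libraries and at 73.3 in wild-type TAK-418 replicate 1. Ppp3ca was 3.63 to 4.52 times as abundant as Ppp3cb in 13 libraries and 9.57 times in that one.

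None of the 9 genes passed the test in any of the 6 comparisons of genotype and drug. The test was limma on log2(scaled abundance + 1) over all 16063 genes with a value in at least 3 libraries, with Benjamini-Hochberg adjustment and a threshold of 0.05. No other gene passed it either. For the genotype effect under vehicle (mutant minus wild type) 0 of 9 members passed, beside 0.0% of all genes, and 0 of 9 had an unadjusted p under 0.05, beside 5.57%. For the drug effect in mutants (TAK-418 minus vehicle) the counts were 0 of 9 beside 0.0%, and 2 of 9 beside 4.41% unadjusted. For the drug effect in wild types they were 0 of 9 beside 0.0%, and 1 of 9 beside 8.67%. For the genotype effect under TAK-418 they were 0 of 9 beside 0.0%, and 0 of 9 beside 4.89%. For treated mutants against vehicle wild types they were 0 of 9 beside 0.0%, and 0 of 9 beside 5.49%. For the interaction of genotype and drug they were 0 of 9 beside 0.0%, and 1 of 9 beside 4.46%.

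The median log2 difference of the 9 genes lay between -0.09 (drug effect in wild types) and 0.10 (interaction), where the median over all genes tested was between -0.0030 and 0.0040. In bulk tissue a difference in the number of cells of a type and one in RNA per cell cannot be told apart. The comparisons share groups, so the values of a gene in different contrasts are not independent of each other.

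4 differences had an unadjusted p under 0.05, and none of them passed after adjustment. Camk2g was higher in treated than in vehicle mutants by 0.11 ± 0.03 (log2, SE), with group means of 57.5 and 53.3 and an adjusted p of 0.832 by limma. Camk2d was higher in the same comparison by 0.21 ± 0.09, with means of 11.3 and 9.64 and an adjusted limma p of 1. Its interaction term was 0.31 ± 0.12, with an adjusted limma p of 0.977. Camk2a was higher in treated than in vehicle wild types by 0.12 ± 0.05, with means of 1177 and 1081 and an adjusted limma p of 0.552. Without wild-type vehicle replicate 3 and mutant vehicle replicate 1, highest in choroid plexus markers, these 4 differences were 0.12, 0.16, 0.24 and 0.13. The libraries at 906 and 606 for these markers stayed in that fit. Markers of dentate granule cells differed between the same groups. The summed scaled abundance of Prox1, C1ql2, Dsp and Rfx3, all with a value in every library, was 107 to 116 in vehicle and 127 to 141 in treated wild types. It was 118 to 124 in vehicle and 128 to 136 in treated mutants, and neither pair of ranges overlapped, on this scale or on abundance times length. The sum of 5 immediate early genes, of which Junb was at 0 in every library, was 89.2 to 133 in vehicle and 81.6 to 88.7 in treated wild types. In mutants this sum overlapped, at 70.75 to 102.7 in vehicle and 84.06 to 94.45 in treated libraries. The dentate granule cell and immediate early lists were picked from a longer set of marker lists. The part of these markers in the 4 differences was not tested. The sign of the Camk2g difference depended on which transcripts were counted. With the most abundant transcript of each library in place of the sum it was -0.41.

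For 6 of the genes the intervals were narrower than for Nrgn, Ppp3cb and Camk2b, and those of Camk2d were the widest of the 6. The 95% intervals of the 6 log2 differences lay between -0.24 and 0.33 for Calm2, between -0.20 and 0.13 for Calm3, between -0.27 and 0.29 for Ppp3ca, between -0.34 and 0.24 for Camk2a, between -0.14 and 0.20 for Camk2g, and between -0.37 and 0.57 for Camk2d. Those of Nrgn (-1.46 to 1.98), Ppp3cb (-0.87 to 1.19) and Camk2b (-0.99 to 0.90) were wider. The coefficient of variation over 14 libraries was 2.93% (Calm3) to 24.9% (Nrgn) among the 9 genes, beside a median of 10.4% over 13181 genes. Its median was 7.78% for the 9 genes and 6.50% for the 1319 most abundant genes. On abundance times length the coefficient was 2.70% to 11.4% among the 9 genes. The medians on this scale were 5.2% for the 9 genes and 5.4% for the 1319 highest genes.

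**Figure D2:**
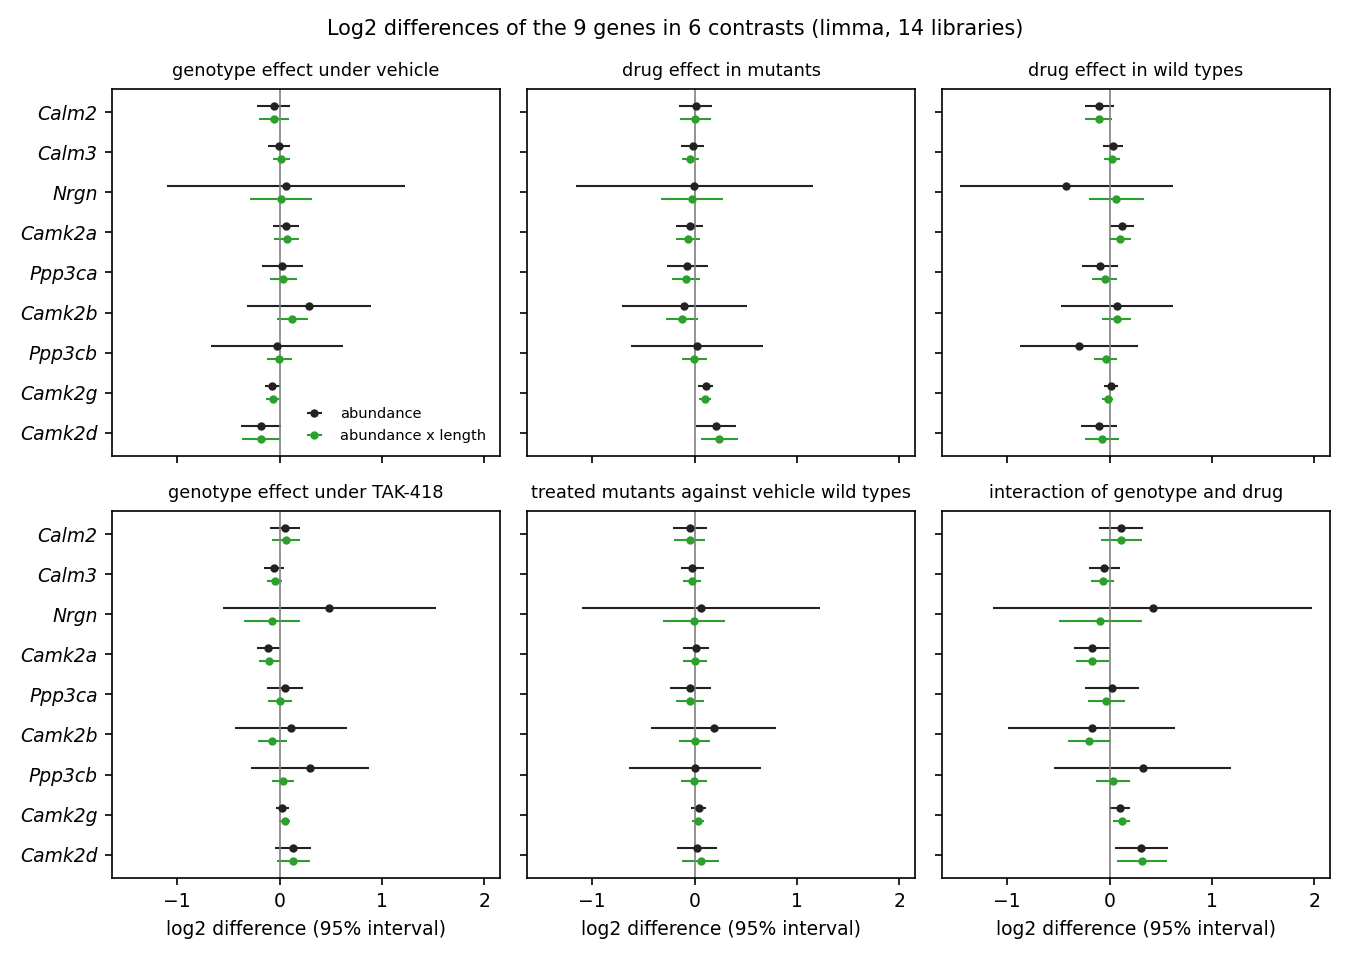
Log2 differences with 95% intervals (x axis) of the 9 genes (rows) in the 6 contrasts, from scaled abundance (black) and from scaled abundance times transcript length (green). The black intervals of Nrgn, Camk2b and Ppp3cb are the widest, from -1.46 to 1.98 for Nrgn, and the green interval of Nrgn reaches only -0.50 to 0.34.

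The wide intervals of Nrgn, Ppp3cb and Camk2b came with a change in the assembled transcript. Nrgn was at 1161, 1171 and 1271 in wild-type vehicle, 1182, 1223 and 1371 in mutant vehicle, 226, 1139, 1180, 1239 and 1523 in wild-type TAK-418, and 1152, 1284 and 1335 in mutant TAK-418 libraries. The value of 226 belongs to wild-type TAK-418 replicate 2. There the single assembled Nrgn transcript was 7023 bases long, against 1009 to 1319 bases in the other 13 libraries. Its last exon measured 6587 bases in place of 625 to 728 and ran over 4951 bases of Vsig2, a gene on the opposite strand.

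Abundance times length of Nrgn in that library was 1587 FPKM-like units times kilobases, inside the 1217 to 1783 of the other 13. The log2 drug effect in wild types was -0.42 ± 0.48 (SE) with all libraries, 0.07 ± 0.10 without wild-type TAK-418 replicate 2, and 0.07 ± 0.12 from abundance times length. The genotype effect under TAK-418 was 0.49 ± 0.48, and -0.01 ± 0.10 without that library. The adjusted limma p was 0.807 or more in each of these fits.

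Ppp3cb showed the same in wild-type TAK-418 replicate 1, the deepest library. Its transcript was 8128 bases long there and 2883 to 2944 bases in the other 13 libraries, with a last exon of 6713 bases in place of 1471 to 1529. The extension covered 1952 bases of Mss51, the neighbour on the same strand. Abundance times length was 567 there and 522 to 612 in the others. The log2 drug effect in wild types was -0.30 ± 0.26 (SE) with that library and -0.02 ± 0.06 without it.

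Camk2b had long ends in wild-type vehicle replicate 1 and wild-type TAK-418 replicate 3. Its values were 221, 421 and 513 in wild-type vehicle, 406, 448 and 479 in mutant vehicle, 245, 400, 430, 436 and 443 in wild-type TAK-418, and 375, 424 and 443 in mutant TAK-418 libraries. In the libraries at 221 and 245 the most abundant transcript was 7527 and 7530 bases long, with a last exon of 5818 bases that ran over 1772 bases of Ykt6 on the opposite strand. Abundance times length was 1685 and 1872 there and 1461 to 1748 in the other 12 libraries, so the second of them was above the rest on this scale. The highest value, 513 in wild-type vehicle replicate 2, came with the shortest form of 1813 bases. The log2 genotype effect under vehicle was 0.29 ± 0.28 (SE) with all libraries, -0.07 ± 0.22 without wild-type vehicle replicate 1, and 0.13 ± 0.07 from abundance times length. Leaving out replicate 2 of the same group gave 0.54 ± 0.28. The library kits named in the labels are not stated to keep strand, so reads of Nrgn and Vsig2, or of Camk2b and Ykt6, cannot be told apart where the genes overlap.

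**Figure D3:**
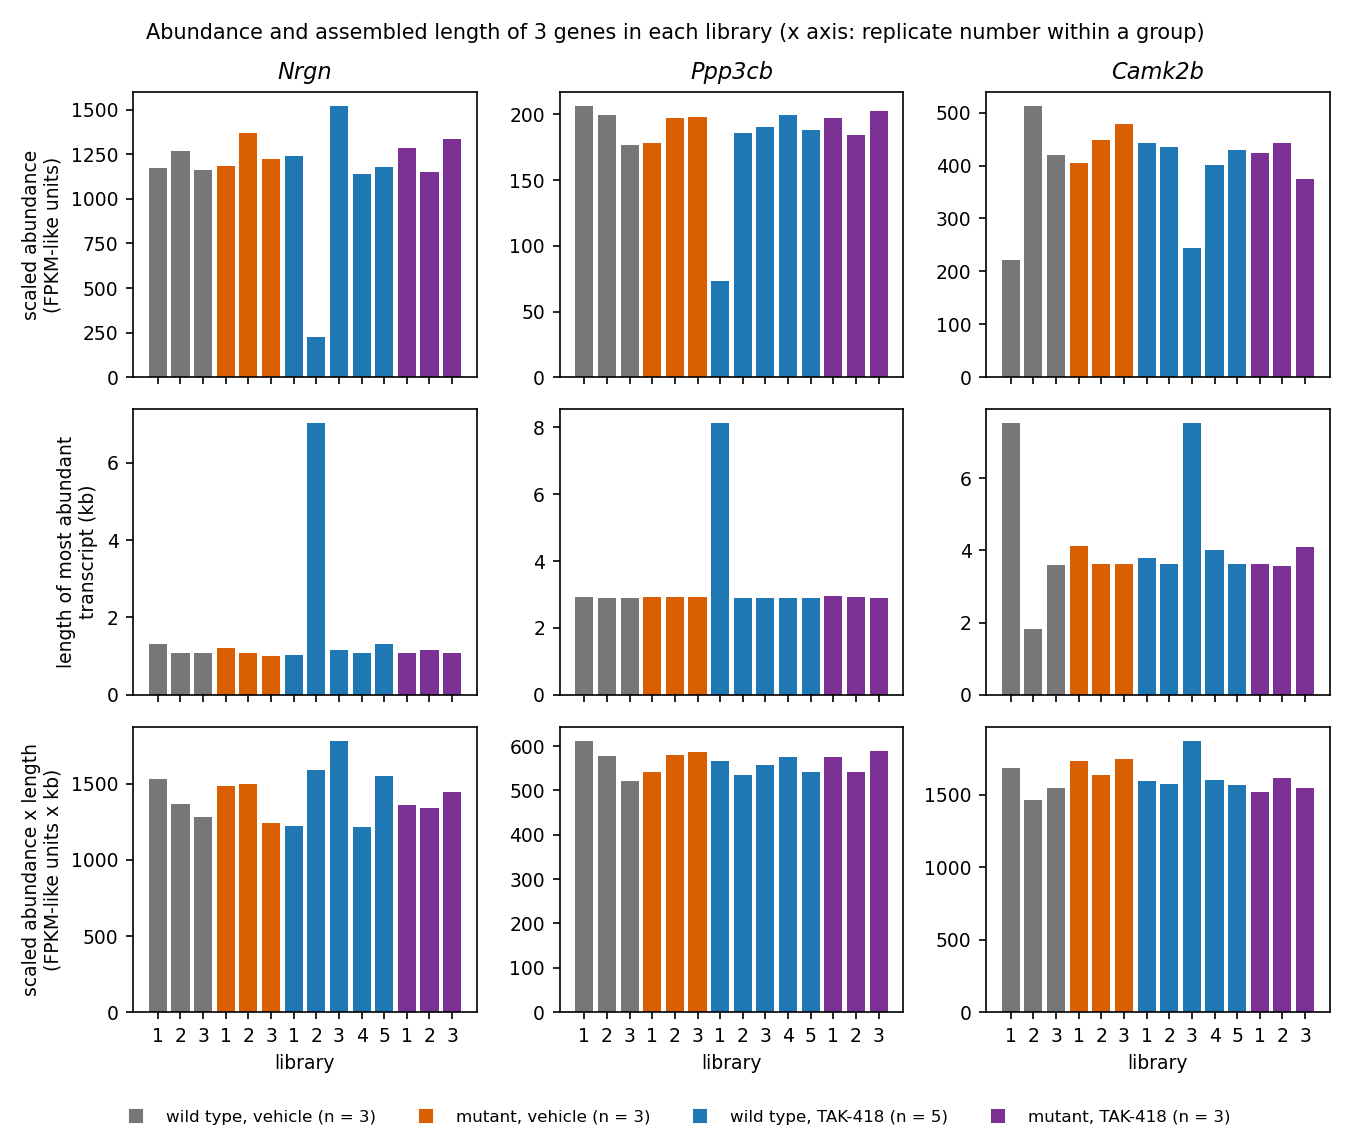
Scaled abundance (FPKM-like units, top), length of the most abundant assembled transcript (kb, middle) and scaled abundance times length (bottom) of Nrgn, Ppp3cb and Camk2b, 1 bar per library, coloured by group. The low bars at the top stand above the tall bars in the middle (7023 bases for Nrgn, 8128 for Ppp3cb, 7527 and 7530 for Camk2b), and the bottom row holds no bar as low, with Nrgn between 1217 and 1783.

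On abundance times length, again 0 of 9 members passed in each of the 6 contrasts (limma, Benjamini-Hochberg). The share of all genes that passed was 0.00623% for the genotype effect under vehicle, for that under TAK-418 and for treated mutants against vehicle wild types (1 of 16063 each), 0.0125% for both drug effects (2 of 16063 each) and 0.0% for the interaction. An unadjusted p under 0.05 was reached by 3 of 9 members for the interaction, beside 4.13% of all genes, by 2 of 9 for the drug effect in mutants, beside 4.37%, and by 1 of 9 for the genotype effect under vehicle, beside 5.45%. The count was 0 of 9 for the drug effect in wild types, the genotype effect under TAK-418 and treated mutants against vehicle wild types, beside 9.26%, 4.9% and 5.4%. The lowest unadjusted p was that of Camk2g for the drug effect in mutants, a log2 difference of 0.10 with an adjusted limma p of 0.798. The interaction terms of Camk2g, Camk2d and Camk2a were 0.12, 0.32 and -0.17 on this scale.

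The authors' deposited tables, which hold 1 pooled FPKM value per group, gave no q-value under 0.05 for any member. In the authors' deposited table of mutant TAK-418 over wild-type TAK-418, 0.218% of tested loci had such a q-value. The share was 0.611% for mutant vehicle over wild-type TAK-418, 0.324% for mutant TAK-418 over wild-type vehicle, and 0.224% for mutant vehicle over wild-type vehicle. Over the 4 authors' deposited tables the FPKM values were 1304 to 1420 for Calm2, 915 to 935 for Nrgn, 805 to 830 for Calm3 and 634 to 664 for Ppp3ca. They were 334 to 369 for Camk2b, 139 to 143 for Ppp3cb, 42.9 to 45.9 for Camk2g and 8.11 to 10.04 for Camk2d in the authors' deposited tables. Calm3 and Ppp3ca each had a second, low entry there, at 2.49 to 2.81 and 1.21 to 1.69 FPKM. These low entries are not part of the ranges above. For the treated wild types the authors' deposited tables gave Nrgn at 935 and 928 and Ppp3cb at 140 and 139 FPKM. Single libraries were at 226 and 73.3 in scaled abundance, which is another scale. The group means on that scale were 1062 for Nrgn and 167 for Ppp3cb. The log2 ratio of Nrgn in the authors' deposited tables was between -0.03 and 0.02, and that of Camk2b between -0.03 and 0.14.

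Camk2a was listed at 0 for the treated wild types in both of the authors' deposited tables that hold this group, with a log2 ratio of 0 and a p-value of 1. The status given there is HIDATA, the code that Cuffdiff writes for a locus with too many fragments to be computed, so the 0 is no measurement. The other groups, mutant TAK-418 and mutant vehicle, were at 806 and 831 FPKM in these tables. Scaled abundance is another scale, with higher values for this gene. On it the 5 treated wild-type libraries were at 1130 to 1217. The mutant TAK-418 libraries were at 1028 to 1130 and the mutant vehicle libraries at 1077 to 1184. In the tables without the treated wild types Camk2a was computed, at 798 and 808 FPKM (wild-type vehicle and mutant TAK-418) and at 792 and 830 FPKM (wild-type vehicle and mutant vehicle). HIDATA was given to 10 of 81411 loci in the tables with the treated wild types and to 4 in the others. Camk2a lies on the plus strand of chromosome 18, from 60925618 to 60988152 (GRCm38), and was assembled as 1 transcript of 18 exons, the form Camk2a-203, in all 14 libraries.

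The CaMKII genes differed in how many forms were assembled. Camk2a, Calm2, Calm3 and Nrgn each had 1 chain of introns in all 14 libraries, with 18, 6, 6 and 4 exons. Camk2b had 11 chains over the libraries, of which the annotated Camk2b-209 with 21 exons took 61.1% of the abundance on average. Camk2d also had 11, led by Camk2d-228 with 55.0%, Camk2d-206 with 19.0% and Camk2d-204 with 11.6%. Camk2g had 15, and its leading chain of 21 exons, with 32.6%, matched no annotated transcript in full. Of the abundance of Camk2g 21.6% was on fully annotated chains, beside 89.6% for Camk2d and 61.1% for Camk2b. These shares depend on how the assembler joined distant exons, which short reads cannot link.

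Calcineurin genes had 2 chains each. Ppp3ca-201, which holds the 30-base exon, took 90.1% and Ppp3ca-202, which lacks it, 9.85%. The forms of Ppp3cb, Ppp3cb-202 with 93.6% and Ppp3cb-205 with 6.39%, differed in length by 3 bases, and the shorter form was assembled in 11 libraries at 5.30% to 16.5% of the gene's abundance.

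Splicing of the 9 exons was measured as inclusion, the share of abundance on transcripts that hold the exon among those that hold or skip it. The most skipped was the 114-base exon of Camk2g, with a mean inclusion of 29.7% ± 4.49 (SD, n = 14). The 69-base exon of Camk2g was at 55.4% ± 6.33, its 63-base exon at 61.2% ± 6.78 and its 33-base exon at 83.4% ± 4.72. In Camk2d the 42-base exon was at 74.8% ± 7.15 and the 60-base exon at 83.1% ± 6.30. An 89-base exon of Camk2d (chr3:126841485-126841573), which lies wholly inside the coding sequence of no annotated transcript, was at 61.7% ± 12.2. The 45-base exon of Camk2b was at 94.2% ± 5.75 and that of Ppp3ca with 30 bases at 90.1% ± 6.73, and 6 and 3 libraries respectively held no skipping form of them.

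None of the 9 exons passed the test of inclusion, limma over 4307 alternative exons of all genes with Benjamini-Hochberg adjustment, and no other exon passed it either. For the genotype effect under vehicle 0 of 9 passed beside 0.0% of all exons, and 0 of 9 had an unadjusted p under 0.05 beside 5.55%. For the drug effect in mutants it was 0 of 9 beside 0.0%, and 1 of 9 beside 4.99%. For the drug effect in wild types it was 0 of 9 beside 0.0%, and 1 of 9 beside 4.95%. For the genotype effect under TAK-418 it was 0 of 9 beside 0.0%, and 0 of 9 beside 4.02%. For treated mutants against vehicle wild types it was 0 of 9 beside 0.0%, and 0 of 9 beside 4.81%. For the interaction it was 0 of 9 beside 0.0%, and 0 of 9 beside 4.43%.

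Both exons with an unadjusted p under 0.05 were in Camk2g. Inclusion of the 114-base exon was 23.0%, 25.2% and 29.3% in vehicle mutants and 33.2%, 35.1% and 36.7% in treated mutants. It was 21.6%, 27.3% and 34.1% in vehicle and 28.3% to 32.8% in treated wild types. The treated mutants lay above the vehicle mutants without overlap, by 9.16 ± 3.91 points (SE, 95% interval 0.640 to 17.7), with an adjusted limma p of 0.915. The share of all exons that separate in this way was not counted. The interaction was 6.84 ± 5.25 points, with an adjusted limma p of 0.932.

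Inclusion of the 63-base exon was 43.4%, 54.5% and 59.9% in vehicle wild types and 59.8%, 61.7%, 66.5%, 68.4% and 69.3% in treated wild types. It was 57.1%, 60.3% and 67.0% in vehicle and 60.4%, 62.2% and 66.8% in treated mutants. The wild types differed by 12.6 ± 4.42 points (SE, 95% interval 2.94 to 22.2), with an adjusted limma p of 0.865, and their ranges overlapped between 59.8% and 59.9%. The library at 43.4% was wild-type vehicle replicate 3, one of the libraries with high choroid plexus markers, and the part of those cells in this value was not tested. Without that library the difference was 7.96 points.

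**Figure D4:**
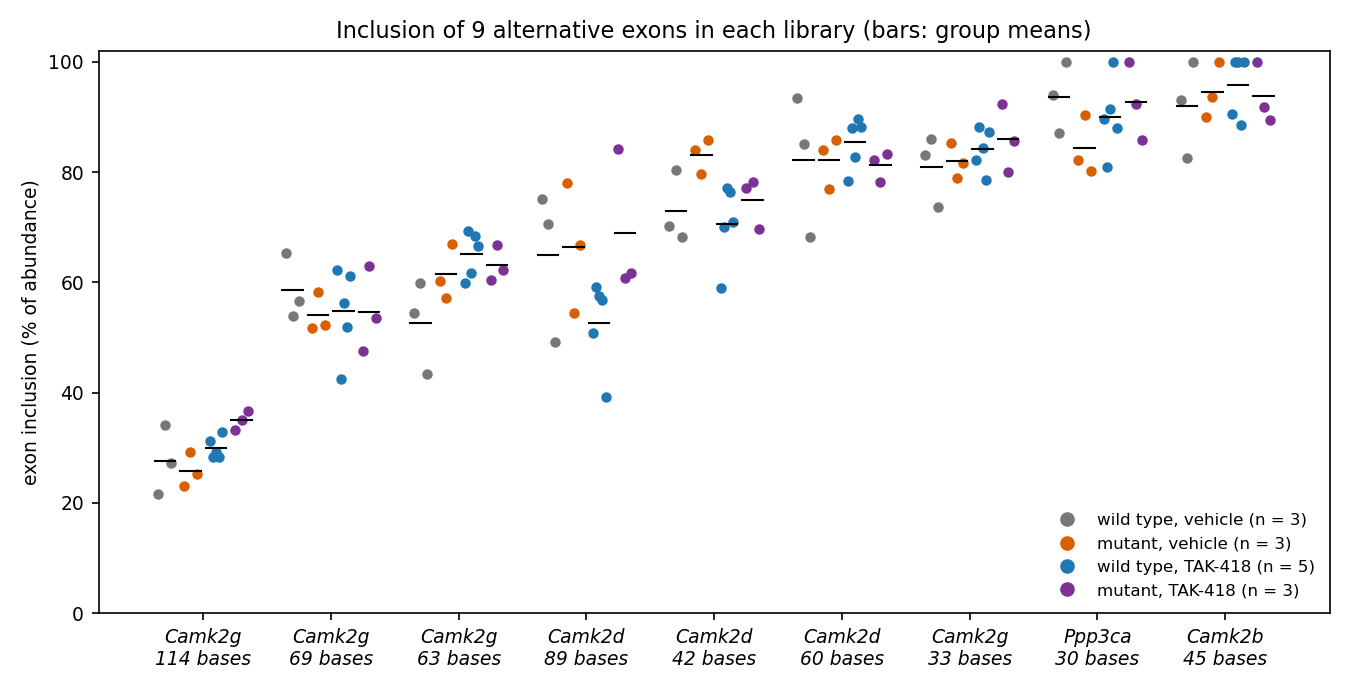
Inclusion (% of abundance) of the 9 alternative exons in each library, coloured by group, with a bar at each group mean, ordered by mean inclusion. The 114-base exon of Camk2g is lowest at 29.7% on average, and the exons of Ppp3ca and Camk2b have no skipping form in 3 and 6 libraries.

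The partners of these proteins were examined by 4 lists of genes, and no listed gene passed the adjusted threshold in any contrast. The list of other CaM kinases and CaMKII inhibitors held 10 genes, all tested. The drug effect in mutants had an unadjusted p under 0.05 for 1 of them upward and 0 downward, beside 2.53% and 1.87% of all genes, with a median log2 difference of 0.04. That gene was Pnck, a CaM kinase I family member, at 48.3 ± 2.85 in vehicle and 64.1 ± 2.61 in treated mutants (SD, n = 3). The log2 difference was 0.40 ± 0.07 (SE) with an adjusted limma p of 0.148. It was also at 49.7 ± 2.39 in vehicle (SD, n = 3) and 62.4 ± 4.35 in treated wild types (SD, n = 5), so both treated groups lay above both vehicle groups without overlap. The share of all genes that separate in this way was not counted. Camk1g was lower in vehicle mutants than in vehicle wild types by a log2 difference of -0.20 ± 0.07, with an adjusted limma p of 0.781. The CaMKII inhibitor gene Camk2n1 had a mean of 413 over all libraries, close to that of Camk2b. Its group means were 476 in wild-type vehicle, 452 in mutant vehicle, 342 in wild-type TAK-418 and 429 in mutant TAK-418 libraries. The treated wild types spread from 238.1 to 462.5.

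The list of calcineurin partners and targets held 12 genes. Its regulatory subunit gene Ppp3r1 averaged 598. Rcan3, a calcineurin regulator, had a log2 drug effect in wild types of 0.15 ± 0.06 (SE, adjusted limma p 0.533). Crtc1, a coactivator of CREB that calcineurin dephosphorylates, had an interaction term of -0.29 ± 0.13 (SE, adjusted limma p 0.977). The median log2 differences of this list were between -0.05 and 0.02 in the 6 contrasts.

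Of 13 genes for calmodulin-binding proteins, 2 had an unadjusted p under 0.05 for the genotype effect under vehicle, both downward, beside 2.95% of all genes downward and 5.57% in either direction. Adcy8, a calmodulin-stimulated adenylyl cyclase, was at 6.83 ± 1.84 in wild-type and 4.44 ± 0.506 in mutant vehicle libraries (SD, n = 3), a log2 difference of -0.50 ± 0.17 (SE) with an adjusted limma p of 0.735. Nos1, the neuronal nitric oxide synthase, had a log2 drug effect in wild types of 0.23 ± 0.09 (SE, adjusted limma p 0.473).

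Of 10 synaptic partners and substrates of CaMKII, 3 had an unadjusted p under 0.05 for the drug effect in wild types, all upward, beside 5.24% of all genes upward and 8.67% in either direction. The median log2 difference of the list was 0.12, with 8 of 10 above 0, where the median over all genes tested was -0.0030. Dlg4, which encodes the scaffold PSD-95, was at 283 ± 6.82 in vehicle (SD, n = 3) and 313 ± 4.80 in treated wild types (SD, n = 5), a log2 difference of 0.15 ± 0.04 (SE) with an adjusted limma p of 0.279. Syn1, the synaptic vesicle protein synapsin I, had a difference of 0.23 ± 0.06 (SE) with the same adjusted limma p of 0.279. Under TAK-418 the mutants had a median log2 difference of -0.16 from the wild types in this list, with 0 of 10 past the adjusted threshold and 3 of 10 with an unadjusted p under 0.05, all downward, beside 2.55% of all genes. For the interaction 2 of 10 had such a p, both downward, beside 2.32%. These 3 contrasts share the treated wild types. The dentate granule cell and immediate early markers given above separated the treated from the vehicle wild types, and their part in this list was not tested.

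The genes whose levels were most alike over the 14 libraries are given as a description, among 7574 genes with a mean scaled abundance of at least 10 and a value in every library. The libraries share groups and depth differences, so the points are not independent. Those most like Camk2a were Tbc1d16, Nrp2 and Crtc1, with Pearson r of 0.911, 0.908 and 0.904, and 0.880, 0.846 and 0.909 on abundance times length. Those most like Calm2 were Cnih1, Cycs and Smim15, with r of 0.953, 0.950 and 0.930, and 0.963, 0.792 and 0.90 on the second scale. Those most like Ppp3ca were Psmd8, Amd1 and Asns, with r of 0.914, 0.895 and 0.890, and 0.368, 0.591 and 0.599 on the second scale.

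For Nrgn and Camk2b the coefficients fell further between the scales. The genes most like Nrgn were Cdk11b, Nudcd3 and Tstd2, with r of 0.974, 0.965 and 0.960, and 0.118, 0.410 and -0.300 on abundance times length. Nrgn was at 226 in wild-type TAK-418 replicate 2 and at 1139 to 1523 elsewhere, so that library weighs most in the first coefficients. Those most like Camk2b were Syngr1, Ptpmt1 and Casc4, with r of 0.941, 0.905 and 0.844, and -0.601, 0.352 and -0.492 on abundance times length. Camk2b was at 221 and 245 in the libraries with a long end and at 375 to 513 elsewhere. Coefficients without these libraries were not computed for either gene.

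Between the members themselves, Camk2a and Calm2 ran in opposite directions over the 14 libraries, with a Pearson r of -0.763 on scaled abundance and -0.804 on abundance times length. Calm2 and Ppp3ca had an r of 0.757 and 0.621. Camk2a and Ppp3ca had an r of -0.607 and -0.469. These coefficients are descriptions over libraries that share preparation and scaling, with n = 14.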

How the data were processed

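RNA of 14 hippocampus samples was analysed in the groups the labels give. Reads were aligned with TopHat2 2.1.0 to mm10 after FastQC, per the submitters' processing notes. The authors ran CLASS 2.1.7 to assemble transcripts of each library, per the file headers, and each deposited transcript carries an abundance score. That this score is FPKM-like was worked out from its values: abundance times length of single-exon transcripts fell within 0.1 of whole multiples of 1 step for 92.5% to 98.9% of those checked. The step gives the relative depth. The authors' 4 deposited tables hold FPKM values pooled per group, log2 ratios, p-values and q-values per locus in the column layout of Cuffdiff, per the file headers. The group order in each table was checked against the libraries.

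Transcripts were assigned to GENCODE M21 genes by a shared intron, or, if of 1 exon, by lying over the gene's exons on its strand for 50% or more of its length. Abundances were summed per gene and scaled by the median of ratios over 13181 genes. limma 3.58.1 in R 4.3.3 was fitted on log2(value + 1) with 4 group means over all 14 libraries. Adding 1 shrinks differences of low genes. Exon inclusion was tested the same way on percent values, for exons with a mean inclusion of 5% to 95%, a mean abundance of at least 1 for the forms that hold or skip the exon, and such forms in all 14 libraries. Both tests were tested on simulated data with known differences, set in the genotype effect under vehicle only. The simulated differences were larger than those named here. What the tests would find at the sizes named here was not tried. Python 3.11.15, numpy 2.4.6, pandas 2.3.3 and matplotlib 3.10.9 did the rest. Sequences come from GENCODE M21 transcripts. Protein sequences were not used here beyond translation of those transcripts.

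The members, the lists and the tests were chosen with earlier results of these data known. Named are the 9 members and their differences with an unadjusted p under 0.05. Named exons are those with such a p and the 2 per gene nearest 50% inclusion, and the text adds the other tested exons. Also named are the 2 listed genes with the smallest p per list, and the 3 genes most alike to Camk2a, Camk2b, Calm2, Nrgn and Ppp3ca. The levels of Camk2n1 and Ppp3r1, the ratio of Calm2 to Calm3 and the member correlations were added after their values were seen. Alternatives were other pseudocounts, filters, scalings and transcript choices, abundance times length, Xist as a covariate, and leaving out libraries. Some listed genes are not reported here.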

Additional observations from a re-analysis of the deposited data

Results flagged for a closer look

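In the 5 treated wild-type libraries, the highest or lowest value was compared with its neighbours for the 9 genes on both scales and for the 9 exons, 27 values in all. A value was listed where its gap to the nearest library was over 0.71 of the group's whole range, which chance gives in about 1 of 20 such groups. The 3 values listed are these. Ppp3cb was at 73.3 in wild-type TAK-418 replicate 1, with the others at 186 to 200 (199.7). Camk2b was at 245 in wild-type TAK-418 replicate 3, with the others at 400 (400.4) to 443. On abundance times length Camk2b was at 1872 in the same library, with the others at 1566 to 1601. All of these values came from libraries in which the transcript of that gene was assembled with a long last exon. Nrgn at 226 in wild-type TAK-418 replicate 2 was not listed, since the other 4 libraries spread from 1139 to 1523.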

How the results depend on the processing

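No member and no member exon was called in any of the 6 contrasts under any alternative run, which included leaving out each library in turn (0 to 0 calls). Over these alternatives at most 16 of 15058 genes (0.106%, only the 2 groups compared, drug effect in mutants) and 8 of 4319 exons (0.185%, without mutant TAK-418 replicate 1, genotype effect under TAK-418) were called. The differences of Camk2a, Camk2b, Camk2d, Camk2g, Nrgn and Ppp3cb and of the Camk2g exons named above kept their sign except in 3 genes. Those of the listed partner genes are not covered by this statement. Camk2g in treated against vehicle mutants was -0.41 (log2) with the most abundant transcript only. The drug effect in wild types on Nrgn was 0.067 on abundance times length, 0.073 without wild-type TAK-418 replicate 2 (range without single libraries -0.61 to 0.073), and 0.13 on abundance times length without the deepest library, an alternative chosen after seeing the data. The genotype effect under vehicle on Camk2b was -0.068 without wild-type vehicle replicate 1 (range -0.068 to 0.54). Wild-type TAK-418 replicate 2 held Nrgn, and wild-type vehicle replicate 1 held Camk2b, with a long assembled end. The 114-base exon of Camk2g differed by 7.76 to 10.9 points and the 63-base exon by 7.96 to 16.2 points without single libraries.

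No paired analysis was possible because the replicate numbers follow the order of the samples and pair nothing. The abundance scale keeps no read counts per gene, so no count model was run, and the number of libraries limits the precision. A skipped or included form that was not assembled in a library counts as 0, which does not show that it was absent.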
